A study of Mus musculus with 5 samples.

Results

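Tetraspanins are membrane proteins that cross the membrane several times and gather other proteins around themselves into the tetraspanin web, and the EWI proteins are immunoglobulin domain partners that CD9 and CD81 bind directly. The transcripts of 10 such genes were followed here in differentiating mouse myoblasts, namely the 8 tetraspanins Cd9, Cd81, Cd63, Cd82, Cd151, Cd53, Tspan4 and Tspan9 and the 2 partners Ptgfrn (also called EWI-F or CD9P-1) and Igsf8 (EWI-2). They were chosen by name, with earlier results of these data known, among the 54232 genes of the deposited table. All 10 were listed in the table, and all 10 passed the filter on low values, which asked for 5 normalized counts or more in 1 sample or more. Primary myoblasts came from leg muscles of mice of 6 to 8 weeks on a mixed C57BL6 and 129SV background, were selected with magnetic satellite cell and anti-integrin beads, and were differentiated for 72 h in 2% horse serum. The groups were WT (n = 3) and Elmo2EID/EID (n = 2). Elmo2EID/EID mice carry an altered ELMO Inhibitory Domain, introduced into the gene itself and so present in every tissue, which biases ELMO2 towards its open state. With DOCK proteins, ELMO2 activates RAC1. The study describes its primary cells in general as typically taken from separate mice, but the labels do not tie each sample to a mouse or culture, so the p-values below measure the spread between these samples, which may be technical. The comparison bears on genes of the web because CD9 and CD81 take part in myoblast fusion, the process that the study set out to change.

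In muscle, CD9 and CD81 are known as brakes on fusion, since regenerating muscle of mice that lack both forms giant myofibers. CD9 is better known from the egg, where it is needed for fusion with the sperm, and CD81 from the surface of lymphocytes. PTGFRN and IGSF8 reach the actin cytoskeleton through ezrin, radixin and moesin, and so tie the web to the cell cortex.

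The feature by which these proteins are recognised is shown first, because it marks the region through which tetraspanins meet their partners. Tetraspanins share a Cys-Cys-Gly signature in the large extracellular loop, and EWI proteins are named after a Glu-Trp-Ile motif. The signature codons are in capitals within stretches of coding sequence, 5′ to 3′, from the GENCODE M21 transcripts of GRCm38.
Cd9: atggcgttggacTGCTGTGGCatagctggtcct
Cd81: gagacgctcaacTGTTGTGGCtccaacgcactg
Cd82: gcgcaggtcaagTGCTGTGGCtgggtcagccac
Cd63: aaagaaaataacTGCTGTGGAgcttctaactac
Ptgfrn: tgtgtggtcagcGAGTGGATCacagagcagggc
Igsf8: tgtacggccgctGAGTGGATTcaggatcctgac
The signature begins at residue 150 of 226 in CD9, 156 of 236 in CD81, 149 of 266 in CD82 and 145 of 238 in CD63, counted from the first residue of the longest coding transcript. CD9, CD81 and CD63 hold the same letters once more outside this place. The EWI motif begins at residue 251 of 879 in PTGFRN and 272 of 611 in IGSF8. In global alignments of the coded proteins, CD9 and CD81 were identical at 46.9% of 224 aligned residues, and TSPAN4 and TSPAN9 at 56.6% of 235. The remaining pairs of the 8 tetraspanins were identical at 29.6% to 42.0%, and PTGFRN and IGSF8 at 35.5% of 577 residues.

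The samples were deeply sequenced, with 35021856 to 48851316 recovered reads in WT against 49192931 to 49381544 in Elmo2EID/EID samples, so that 3 reads correspond to 2.65 to 3.73 normalized counts. Normalized counts are reads per gene divided by a size factor of the sample, and fold changes give Elmo2EID/EID relative to WT as differences of log2(normalized count + 1), a scale that makes the changes of low genes look smaller. Differentiated muscle genes were abundant in every sample, with Myog at 47286 to 53544 normalized counts, and 0 of the 10 listed passed the test. Markers of some other cells differed in level between the genotypes. Endothelial markers summed to 415.0 to 1402 normalized counts in WT against 3378 to 4798 in Elmo2EID/EID samples, with 11 of 12 markers higher without overlap, 0 called by limma and 5 called by DESeq2. Over all genes, 16.7% were higher without overlap, 197 of 18156 were called higher by limma and 412 of 17287 by DESeq2. The remaining marker, Cldn5, at 1.8 to 6.2 normalized counts, was lower without overlap (log2 fold change -0.66). Pax7, which marks satellite cells, was the 1 of 6 markers of undifferentiated myoblasts called by limma and fell (log2 fold change -1.35, adjusted p = 0.0076, limma), while Myf5 lay above WT without being called, at 3122, 2188 and 4399 against 5152 and 5254 normalized counts (log2 fold change 0.74, adjusted p = 0.237, limma). Of the 6, 5 had log2 fold changes below 0, and 3 were lower without overlap, Pax7, Myod1 (-0.16) and Itga7 (-0.25). Over all genes tested, 8698 of 18156 had log2 fold changes below 0, 15.9% were lower without overlap and 1.14% were called lower by limma. The 6 myoblast markers summed to 75167 to 82034 normalized counts in WT and 67393 to 69166 in the others. Of 7 tested pericyte markers 2 fell, Rgs5 (log2 fold change -2.97, adjusted p = 0.0076, limma) and Notch3 (log2 fold change -1.55, adjusted p = 0.028), while Cspg4 (0.39) and Mcam (0.61) lay above WT in both Elmo2EID/EID samples without being called. Kcnj8 was at most at 1.1, and the pericyte sums were 44823 to 59942 and 49017 to 49469 normalized counts. Most of each sum was Acta2, at 42664, 46971 and 32559 in WT against 37836 and 37715 in Elmo2EID/EID samples, so the sums say little of the other pericyte markers. All 10 cell cycle genes had log2 fold changes below 0, from -0.53 to -0.14, against 8698 of the 18156 genes tested. Of the 10, 5 were lower without overlap, against 15.9% of all genes, and 0 were called by limma or DESeq2. Their sums were 3054 to 4366 normalized counts in WT against 2902 to 3105 in Elmo2EID/EID samples. Sums of fibro-adipogenic markers were 12191 to 27820 and 13531 to 19187, and those of Schwann cell markers 176.1 to 776.9 and 554.9 to 893.4 normalized counts. Among the former, Col3a1 was lower without overlap (log2 fold change -0.90, adjusted p = 0.102 by limma and 0.0017 by DESeq2). Dcn, at 1.8 to 17.9 normalized counts, was higher without overlap (1.80). All 7 tested Schwann markers had log2 fold changes above 0, with a median of 1.53, against 9458 of the 18156 genes tested. Of these 7, 1 was higher without overlap and 0 were called by limma or DESeq2. The part of these other cells and of the satellite cell and cycling states in the results below was not tested. Xist was at 11825 to 19014 normalized counts and genes of the Y chromosome at most at 1.24 in every sample. Fewer cells of a type and less RNA per cell cannot be told apart in such bulk samples.

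Over the 10 members, Ptgfrn fell in Elmo2EID/EID myoblasts, Cd82, Igsf8, Cd9 and Cd63 were below every WT sample without passing the test, and Cd81, Cd151, Tspan4, Tspan9 and Cd53 overlapped between the genotypes. Thus 1 of 10 members was called lower by limma with Benjamini-Hochberg adjustment over the 18156 genes tested, against 1.14% of all genes. With the DESeq2 Wald test on recovered reads, 3 of 10 were lower, against 3.18% of the 17287 genes with an adjusted p. In 5 of 10 members both Elmo2EID/EID samples lay below every WT sample, against 15.9% of all genes, and in 0 of 10 both lay above, against 16.7%. The median log2 fold change was -0.26 over the members and 0.01 over all genes tested. The limma count ran from 0 to 2 when each sample was left out in turn.

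**Figure D1:**
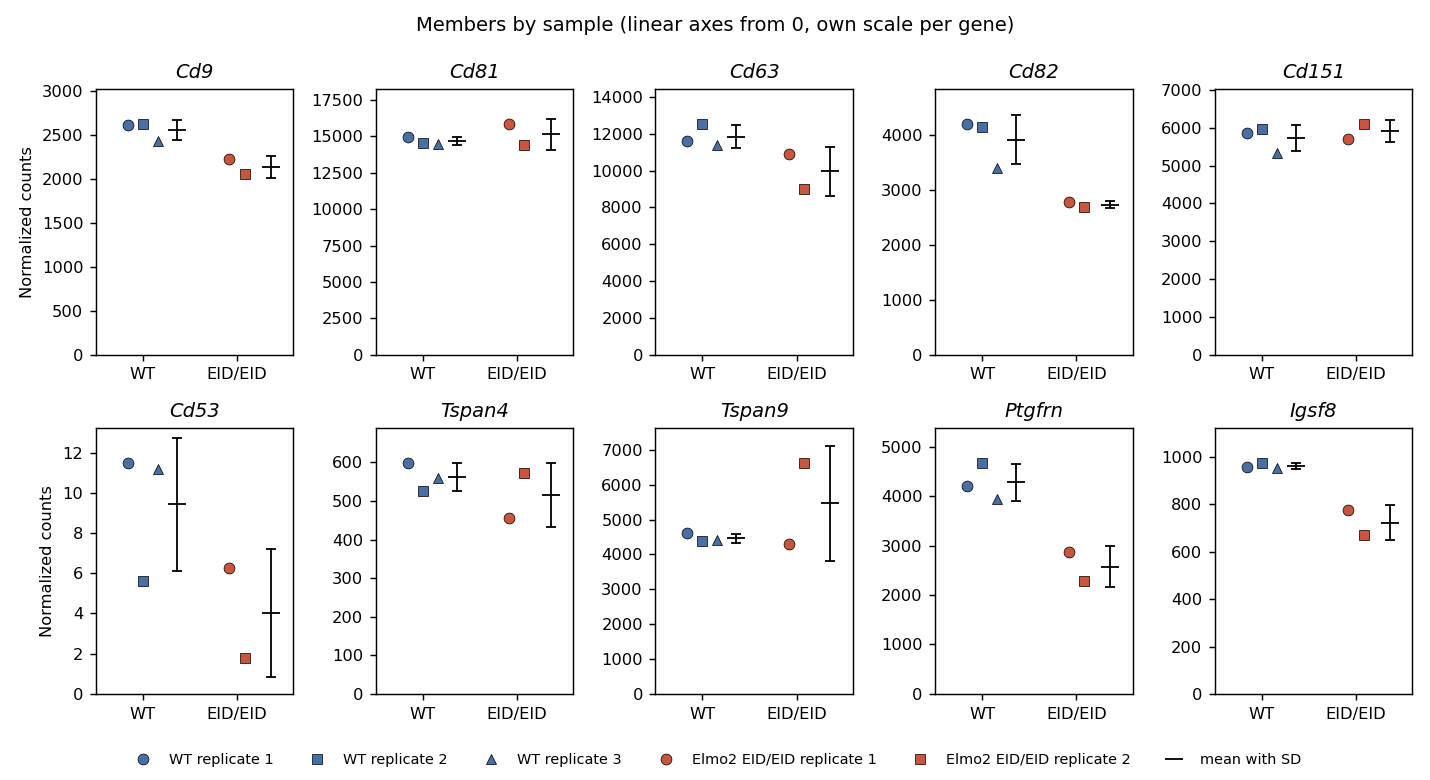
Normalized counts (linear y axes from 0, a scale of its own per gene) of the 10 members in WT (blue, n = 3) and Elmo2EID/EID (red, n = 2) samples, each point a sample and each bar the mean with its SD. Points of the genotypes are apart for Cd9, Cd63, Cd82, Ptgfrn and Igsf8, and the second Elmo2EID/EID sample stands alone for Tspan9 at 6630 normalized counts.

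The partners are taken first. Ptgfrn (ENSMUSG00000027864, GRCm38 chromosome 3, 101040232 to 101110278, minus strand) encodes the EWI protein that binds CD9 and CD81. It had 4208, 4672 and 3948 normalized counts in WT samples against 2871 and 2275 in the Elmo2EID/EID samples. The highest Elmo2EID/EID sample was therefore well below the lowest WT sample. Ptgfrn fell by 39.8%, a log2 fold change of -0.74 (standard error 0.12, 95% interval -1.02 to -0.46, adjusted p = 0.0332, limma). It was also called by edgeR's quasi-likelihood test (adjusted p = 0.0294) and by DESeq2 (adjusted p = 4.8e-06) on recovered reads. By limma its adjusted p was 0.124 without WT replicate 1, 0.0868 without WT replicate 2, 0.047 without WT replicate 3, 0.0707 without Elmo2EID/EID replicate 1 and 0.231 without Elmo2EID/EID replicate 2, with log2 fold changes from -0.91 to -0.57. Without the filter on low values the adjusted p was 0.12, and without the mean-variance trend 0.163.

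Igsf8 (ENSMUSG00000038034, chromosome 1, 172261641 to 172319841, plus strand) encodes EWI-2, the shorter partner. Its WT samples were close together, at 956.9, 975.9 and 953.4 normalized counts, and its Elmo2EID/EID samples had 774.5 and 672.4. The groups were apart, with a ratio of Elmo2EID/EID to WT means of 0.752. A log2 fold change of -0.41 resulted (standard error 0.09, 95% interval -0.62 to -0.21), with an adjusted p of 0.0718 by limma and 0.0097 by DESeq2. The EWI family has 2 more genes, Igsf3 and Cd101, and of these Igsf3, which encodes a relative of PTGFRN, had 493.0, 526.1 and 394.1 normalized counts in WT against 296.0 and 281.5 in Elmo2EID/EID samples. Its log2 fold change was -0.69 (standard error 0.14), with an adjusted p of 0.0675 by limma and 0.0023 by DESeq2. Cd101, a leukocyte EWI protein, was near the low end, with 9.0 to 28.6 normalized counts in WT against 16.1 and 17.0 in Elmo2EID/EID samples. Both are neighbours of Ptgfrn on chromosome 3, with Cd101 10.7 kb and Igsf3 266.8 kb from Ptgfrn. Within 1 Mb of Ptgfrn, a window chosen after the data were seen, 16 other genes were tested and 0 were called by limma, against 404 of all 18156 genes. Of the 16, Igsf3, Man1a2 (log2 fold change -0.09), Mab21l3 (-1.08) and Nhlh2 (-1.17) were lower without overlap, and Gm42941 (0.93) was higher. Nhlh2 and Gm42941 were at most at 8.0 normalized counts.

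The tetraspanin pair that binds these partners is set side by side next. Cd9 (ENSMUSG00000030342, chromosome 6, 125460266 to 125494791, minus strand) had 2619, 2633 and 2429 normalized counts in WT against 2224 and 2053 in Elmo2EID/EID samples. Both Elmo2EID/EID samples were below the WT range, with a ratio of means of 0.835. The log2 fold change was -0.26 (standard error 0.07, 95% interval -0.43 to -0.09), with an unadjusted p of 0.0093 and an adjusted p of 0.15 by limma and an adjusted p of 0.078 by DESeq2. Cd81 (ENSMUSG00000037706, chromosome 7, 143052739 to 143067934, plus strand) had 14971, 14532 and 14492 normalized counts in WT against 15888 and 14387 in Elmo2EID/EID samples. Its Elmo2EID/EID samples lay on either side of the WT range. Its fold change on the log2 scale was 0.04 (standard error 0.07, adjusted p = 0.816, limma), and the 95% interval of -0.12 to 0.20 gives the sizes of change that these samples leave possible.

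**Figure D2:**
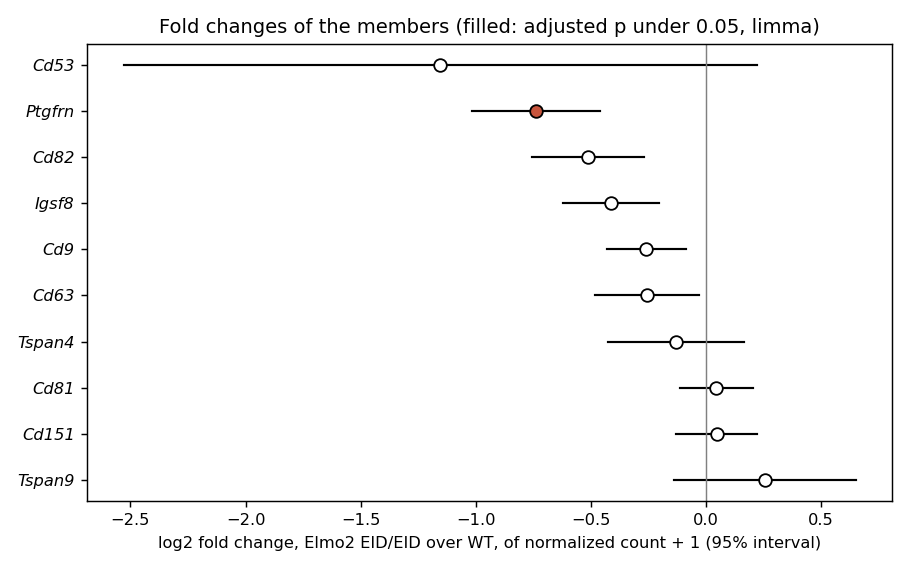
Log2 fold changes of the 10 members (x axis, Elmo2EID/EID over WT, of normalized count + 1) with 95% intervals from limma, ordered by size, filled where the adjusted p was under 0.05. Ptgfrn at -0.74 is the 1 filled point, and the interval of Cd53, from -2.53 to 0.22, is the widest.

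Within a sample the size factor cancels, so ratios set these genes beside each other directly. The ratio of Cd9 to Cd81 normalized counts was 0.175, 0.181 and 0.168 in WT samples against 0.140 and 0.143 in the Elmo2EID/EID samples. All Elmo2EID/EID values were below all WT values, a difference of -0.30 in mean log2 ratio. The ratio of Cd81 to Ptgfrn was 3.56, 3.11 and 3.67 in WT against 5.53 and 6.32 in Elmo2EID/EID samples, a difference of 0.78. The ratio of Cd81 to Igsf8 was 15.6, 14.9 and 15.2 in WT against 20.5 and 21.4 in Elmo2EID/EID samples, a difference of 0.46. Relative to each partner, then, Cd81 transcripts were more abundant in both Elmo2EID/EID samples. For Cd9 the differences were 0.48 to Ptgfrn and 0.15 to Igsf8. The groups did not overlap in any of the 5 ratios, and the exact two-sided permutation test gave p = 0.1 for each, 0.1 after Benjamini-Hochberg adjustment over the 5. With 3 samples against 2 this is the smallest p the test can give. These ratios compare counts of genes of unlike length and say nothing of which protein is in excess.

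**Figure D3:**
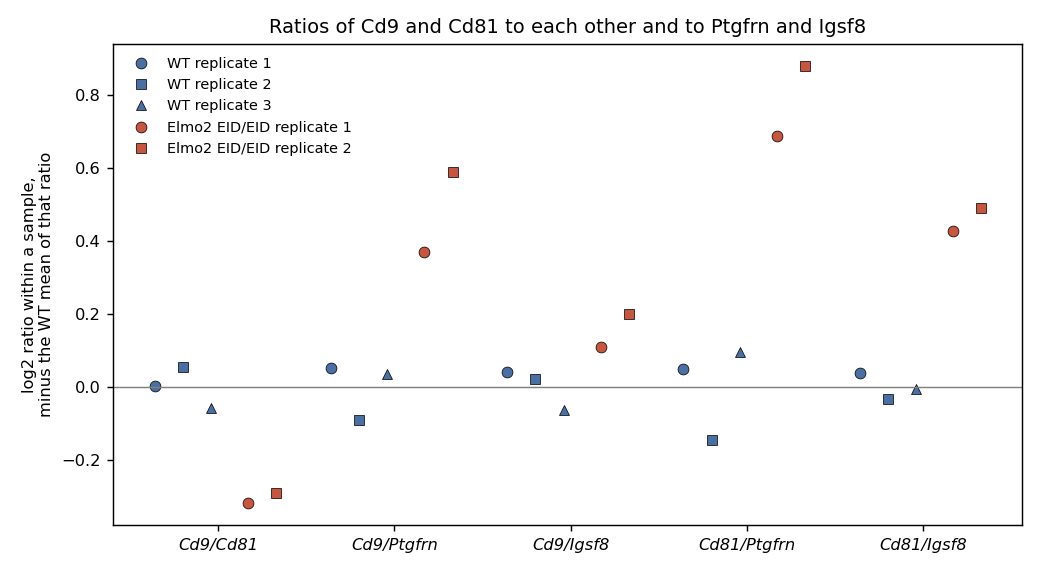
Log2 ratios of normalized counts within each sample, minus the WT mean of that ratio (y axis), for the 5 ratios of Cd9 and Cd81 to each other and to Ptgfrn and Igsf8, WT in blue (n = 3) and Elmo2EID/EID in red (n = 2). The Elmo2EID/EID points lie below WT for Cd9/Cd81 and above WT for the other ratios, furthest for Cd81/Ptgfrn at a mean difference of 0.78.

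Cd82 and Cd63 were the other tetraspanins among the members whose genotypes were apart. Cd82 (ENSMUSG00000027215, chromosome 2, 93419111 to 93463140, minus strand), known as a metastasis suppressor and a surface marker of human satellite cells, had 4210, 4142 and 3396 normalized counts in WT against 2780 and 2684 in Elmo2EID/EID samples. WT replicate 3 was the lowest of its group but remained above both Elmo2EID/EID samples. The log2 fold change was -0.51 (standard error 0.10, 95% interval -0.76 to -0.27), with an adjusted p of 0.0637 by limma, 0.0524 by edgeR and 8.1e-04 by DESeq2. By limma its adjusted p was 0.016 without WT replicate 3, and 0.208 without WT replicate 1, 0.1685 without WT replicate 2, 0.252 without Elmo2EID/EID replicate 1 and 0.3935 without Elmo2EID/EID replicate 2. Cd63 (ENSMUSG00000025351, chromosome 10, 128900989 to 128912822, plus strand), which sits in late endosomes and on exosomes, had 11596, 12561 and 11388 normalized counts in WT against 10911 and 9003 in Elmo2EID/EID samples. Here Elmo2EID/EID replicate 1 was just below the WT range and replicate 2 further from it. Its log2 fold change was -0.26, with a standard error of 0.10 and an adjusted p of 0.272 by limma and 0.239 by DESeq2. It was -0.39 without Elmo2EID/EID replicate 1 and -0.12 without replicate 2.

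The remaining members overlapped between the genotypes. Cd151 (ENSMUSG00000025510, chromosome 7, 141467392 to 141471473, plus strand), the partner of laminin-binding integrins, had 5868, 5973 and 5340 normalized counts in WT against 5702 and 6116 in Elmo2EID/EID samples, and a log2 fold change of 0.05 (95% interval -0.13 to 0.22, adjusted p = 0.828, limma). Tspan4 (ENSMUSG00000025511, 141475240 to 141493427, plus strand), known from migrasomes, begins 3.77 kb downstream of Cd151. It had 599.0, 526.1 and 559.4 normalized counts in WT against 456.1 and 573.7 in Elmo2EID/EID samples, and a log2 fold change of -0.13 (95% interval -0.43 to 0.16, adjusted p = 0.687, limma). In Tspan4 the low value belonged to Elmo2EID/EID replicate 1 alone.

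Tspan9 (ENSMUSG00000030352, chromosome 6, 127961396 to 128143594, minus strand), a tetraspanin of platelets, had 4618, 4385 and 4412 normalized counts in WT against 4303 and 6630 in Elmo2EID/EID samples. The Elmo2EID/EID samples were further from each other than from WT, one below and one above it. Its log2 fold change was 0.26 (95% interval -0.14 to 0.65, adjusted p = 0.532, limma) and turned to -0.06 without Elmo2EID/EID replicate 2. Cd53 (ENSMUSG00000040747, chromosome 3, 106759921 to 106790149, minus strand), a leukocyte tetraspanin, was barely covered, with 13, 5 and 9 reads in WT against 7 and 2 in Elmo2EID/EID samples. At these reads a change was not detectable (log2 fold change -1.15, 95% interval -2.53 to 0.22, adjusted p = 0.412, limma). The value was -1.84 without Elmo2EID/EID replicate 1, -0.46 without replicate 2 and -0.69 with a pseudocount of 5. Among markers of leukocytes, Ptprc was at 0 to 2.7 and Cd52 at 0 to 0.9 normalized counts, while Laptm5 was at 81.4 to 118.9, Itgam at 25.04 to 57.18 and Cd68 at 17.4 to 34.96. The 12 leukocyte markers summed to 179.4 to 223.2 normalized counts in WT against 175.7 and 321.1 in Elmo2EID/EID samples, 134.2 of the latter from Lyz2, and 0 of the 10 tested were called.

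Levels of different genes were compared as normalized counts per kilobase of merged exons. In WT, Cd81 was highest at 5094 ± 92.3 (SD, n = 3), before Cd63 at 3218 ± 170, Cd151 at 2090 ± 124, Cd82 at 1303 ± 150, Cd9 at 1253 ± 55.7 and Tspan9 at 898.8 ± 25.7 normalized counts per kilobase. Lower levels were those of Ptgfrn at 408.6 ± 35, Tspan4 at 257.8 ± 16.8, Igsf8 at 184.4 ± 2.3 and Cd53 at 5.4 ± 1.9. Cd82 and Cd9 are the only neighbours in this order whose WT samples overlapped. On this scale Cd81 was 4.07 times as high as Cd9 in WT, and both partners were below the tetraspanins they bind. In Elmo2EID/EID samples (n = 2), Cd82 at 909.1 ± 22.5 came after Cd9 at 1046 ± 59.2, and Tspan9 at 1099 ± 331 came before both by its mean. Tspan9 led them in replicate 2 alone, at 1333, and at 864.9 in replicate 1 it was below both. Divided by the length of the longest protein-coding transcript, Cd63 was above Cd81, at 10684 against 9566 normalized counts per kilobase in WT, so the order of these 2 rests on the choice of length.

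**Figure D4:**
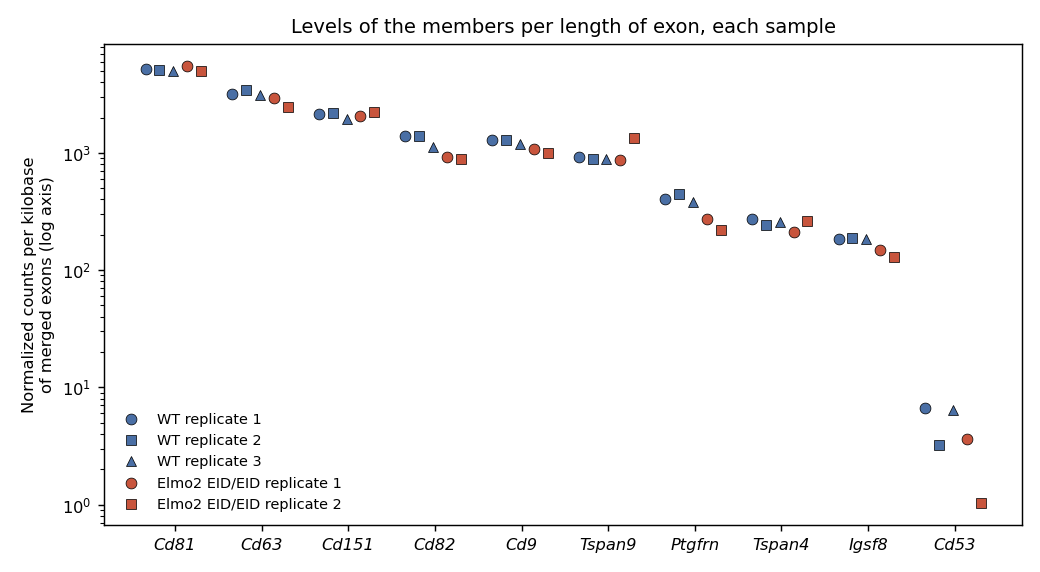
Normalized counts per kilobase of merged exons (log y axis) of the 10 members in each WT (blue) and Elmo2EID/EID (red) sample, ordered by the WT mean. Cd81 lies highest, near 5094 in WT, and Cd53 lowest, near 5.4, and Ptgfrn is lower in both red points than in any blue one.

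Across the 5 samples, the protein-coding genes with the pattern most like that of each of the pair were sought among 10794 that averaged 100 normalized counts or more, by the root mean square difference of log2 values centred on their mean. For Cd9 they were Pebp1 (0.015), which encodes the RAF kinase inhibitor protein, Hddc2 (0.018) and Rtraf (0.018), a factor of RNA transport and transcription. Pebp1 had 6399, 6510 and 6112 normalized counts in WT against 5510 and 5143 in Elmo2EID/EID samples. For Cd81 they were Atxn7l3 (0.013), a subunit of the SAGA deubiquitinase, Ak3 (0.016), a mitochondrial adenylate kinase, and Bag5 (0.017), a co-chaperone. With 5 samples such likeness is a description only.

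Other tetraspanins were read beside the members. Of 23 further genes of the family 21 were tested, with 1 called higher and 0 lower by limma and a median log2 fold change of 0.05. By limma, 197 of all 18156 genes tested were called higher and 207 lower. Both Elmo2EID/EID samples lay above every WT sample in 6 of the 21 and below in 5, against 16.7% and 15.9% of all genes. Upk1b, a tetraspanin of the urothelium, rose from 134.3, 157.0 and 130.5 normalized counts in WT to 404.2 and 485.0 in Elmo2EID/EID samples (log2 fold change 1.65, standard error 0.15, adjusted p = 0.0041, limma). Its adjusted p was 0.0523 without Elmo2EID/EID replicate 1 and 0.089 without replicate 2. Tspan2 was called higher by DESeq2 only (adjusted p = 0.048), with 120.2, 123.4 and 106.9 against 161.0 and 239.4 normalized counts. The most abundant were Tspan3, at 11627 to 13813 normalized counts over all samples, Tspan7, at 2746 to 3336, and Tspan31, at 2494 to 2879, with log2 fold changes of -0.11, 0.05 and 0.0046. Tspan5, Tspan14, Tspan15, Tspan17 and Tspan33, which guide the protease ADAM10 and were singled out after their values were seen, had log2 fold changes from -0.30 to 0.44, none of them called by limma or DESeq2, while Tspan10, of the same group, was at 0 to 1.24 normalized counts and not tested. Of all 31 tetraspanins, 29 were tested, 15 above and 14 below 0, with a median of 0.0046.

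**Figure D5:**
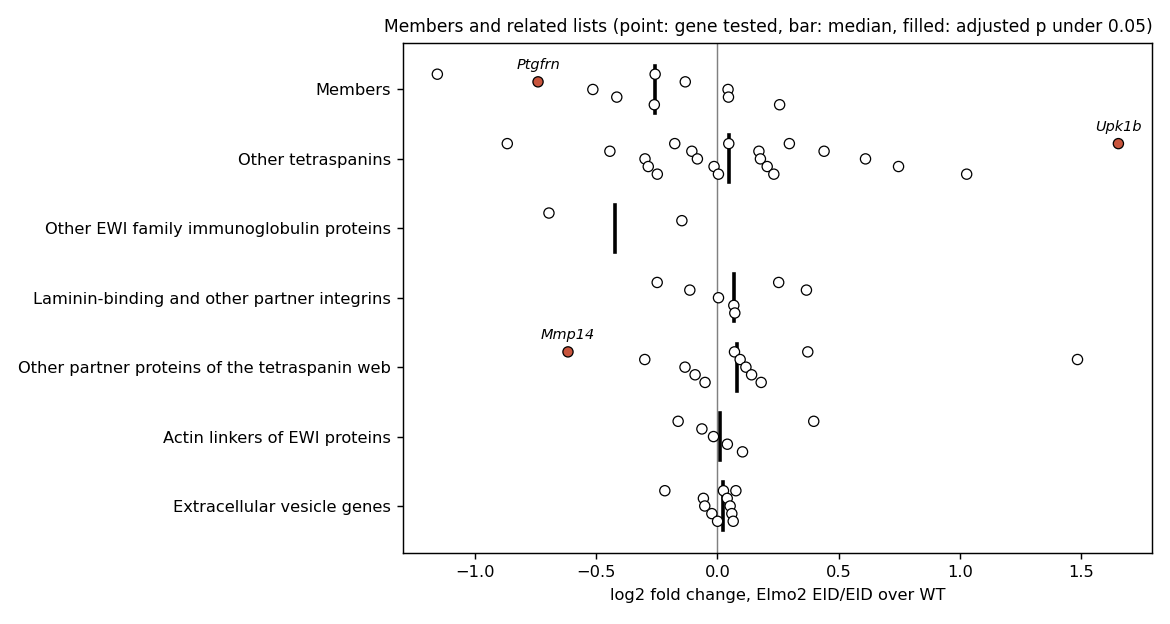
Log2 fold changes (x axis, Elmo2EID/EID over WT) of the tested genes of the members and of the lists of related genes, each point a gene, filled where the limma adjusted p was under 0.05, and each bar the median of a list. Ptgfrn, Upk1b and Mmp14 are the filled points, and the medians are -0.26 for the members and 0.05 for the other tetraspanins.

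Genes of proteins other than EWI proteins that tetraspanins bring together were called in 1 case, Mmp14. Of 7 integrin genes 0 were called, with a median log2 fold change of 0.07. The most abundant were Itgb1 (0.07), the shared beta chain, Itga7 (-0.25), the laminin receptor of muscle whose protein was used to select the cells, and Itga5 (0.37), the fibronectin receptor. Of 13 other partner proteins 12 were tested and 1 was called lower by limma, against 1.14% of all genes. Mmp14 encodes a membrane-bound matrix protease and had 2989, 2461 and 2331 normalized counts in WT against 1739 and 1629 in Elmo2EID/EID samples (log2 fold change -0.62, standard error 0.11, adjusted p = 0.0486, limma). It was above 0.05 under 9 of 15 other settings, and its adjusted p was 0.09 without WT replicate 1, 0.107 without WT replicate 2, 0.216 without Elmo2EID/EID replicate 1 and 0.368 without replicate 2. By the mean over all 5 samples, the most abundant of that list were Cd36 (0.37), the fatty acid transporter, Sdc4 (-0.13), a heparan sulfate proteoglycan, and Adam10 (0.12), a sheddase, although in WT alone Cd44 averaged 4573 and Adam10 4230 normalized counts.

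The EWI proteins meet actin through linkers, and CD63 marks secreted vesicles. Of 6 linkers 0 were called by limma, and Ezr, which encodes ezrin, was higher by DESeq2 only (648.5, 691.0 and 722.2 against 868.4 and 942.2 normalized counts, adjusted p = 0.0146). The most abundant linkers were Ctnna1 (log2 fold change 0.04), Msn (-0.06) and Actn4 (-0.02), which encode alpha-catenin, moesin and alpha-actinin. Of 11 extracellular vesicle genes 0 were called by limma or DESeq2, and their log2 fold changes ran from -0.22 to 0.08. Lamp1 (0.08) and Lamp2 (-0.05), of the lysosome membrane, and Pdcd6ip (-0.06), which encodes ALIX, were the most abundant. Over the 62 related genes 59 were tested, of which 1 was higher and 1 lower by limma, with a median of 0.04. Of all 18156 genes tested, 197 were higher and 207 lower by limma. DESeq2 called 3 of the related genes higher and 2 lower, against 412 and 549 of the 17287 genes with an adjusted p.

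The promoters of the pair and its partners are printed because Ptgfrn was lower while Cd81 overlapped between the genotypes. Each line holds 300 bases from RefSeq on GRCm38.p6, from 250 before to 50 after the start of transcription, 5′ to 3′ on the gene's strand, with E-boxes (CANNTG, the motif that myogenic bHLH factors such as MYOD1 bind) in capitals. The positions are chr3:101110117-101110416 for Ptgfrn (minus strand), chr1:172312117-172312416 for Igsf8 (plus), chr6:125494711-125495010 for Cd9 (minus) and chr7:143052500-143052799 for Cd81 (plus).
Ptgfrn: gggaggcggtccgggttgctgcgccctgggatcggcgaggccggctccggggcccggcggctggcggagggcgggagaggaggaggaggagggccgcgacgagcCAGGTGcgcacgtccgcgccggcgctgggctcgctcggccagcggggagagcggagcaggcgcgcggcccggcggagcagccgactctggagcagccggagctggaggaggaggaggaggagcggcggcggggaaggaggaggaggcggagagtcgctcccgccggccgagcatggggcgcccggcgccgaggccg
Igsf8: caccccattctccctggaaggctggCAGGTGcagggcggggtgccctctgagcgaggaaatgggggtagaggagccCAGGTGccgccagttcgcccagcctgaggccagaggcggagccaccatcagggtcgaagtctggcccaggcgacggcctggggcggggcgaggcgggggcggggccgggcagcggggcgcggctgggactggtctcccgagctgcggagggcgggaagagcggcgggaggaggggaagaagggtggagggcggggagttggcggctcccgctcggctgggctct
Cd9: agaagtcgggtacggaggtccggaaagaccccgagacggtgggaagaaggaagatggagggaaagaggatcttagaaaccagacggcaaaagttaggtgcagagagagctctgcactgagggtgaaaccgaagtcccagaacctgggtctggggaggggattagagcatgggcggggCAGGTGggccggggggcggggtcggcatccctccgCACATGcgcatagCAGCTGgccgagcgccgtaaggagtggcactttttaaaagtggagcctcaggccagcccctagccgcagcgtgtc
Cd81: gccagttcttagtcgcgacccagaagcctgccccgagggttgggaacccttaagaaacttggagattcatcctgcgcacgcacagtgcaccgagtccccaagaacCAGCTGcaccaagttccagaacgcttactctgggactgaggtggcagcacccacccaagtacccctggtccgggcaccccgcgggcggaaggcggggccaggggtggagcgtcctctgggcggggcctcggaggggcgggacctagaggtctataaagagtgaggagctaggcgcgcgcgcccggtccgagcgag
Searched on both strands, these windows hold 1 E-box for Ptgfrn, 2 for Igsf8, 3 for Cd9 and 1 for Cd81, and 72.3% of all 32851 RefSeq promoters of this length hold at least 1. The form CAGCTG, a subset of the E-boxes, occurs once in Cd9 and once in Cd81, and in 16.3% of all promoters. The GC box GGGCGG occurs 1 time in Ptgfrn, 5 times in Igsf8, 2 times in Cd9 and 3 times in Cd81, and at least once in 35.7% of all promoters. These matches describe the letters of the windows only.

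Reads were counted by strand, and the genes that overlap a member on its own strand, Gm43465 in Ptgfrn, Mir7001 in Cd82 and Gm26338 in Tspan9, had at most 1.24 normalized counts in any sample.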

How the data were processed

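Myoblast RNA was sequenced at 72 h of differentiation from WT (n = 3) and Elmo2EID/EID (n = 2) samples, grouped by their labels. Per the study's methods and processing notes, poly-A libraries were strand-specific and read in pairs, reads were checked with FastQC 0.11.5 and aligned to GRCm38 with STAR 2.5.1b, and unique reads were counted on the reverse strand with featureCounts 1.4.6. The authors deposited each gene as a signal, its read count over a DESeq2 1.34.0 size factor. All positive values (100.0%) were whole reads within 0.01 after division by the smallest value of their sample. The totals of 35021856 to 49381544 recovered reads set the counting error. GENCODE M21 matched 54165 of 54232 identifiers.

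The main test was limma 3.58.1 (R 4.3.3), its moderated statistic with the trend option, on log2(normalized count + 1), two-sided, over 18156 genes that reached 5 normalized counts in any sample, adjusted by Benjamini-Hochberg and called under 0.05. Alternatives were pseudocounts of 0.5 and 5, no filter, a mean of at least 10, equal totals, quantile normalization, limma without the trend, edgeR 4.0.16 and DESeq2 1.42.0 on recovered reads, the replicate number as a block, the length of the longest transcript, and each sample left out. The tests were checked on simulated counts. Between replicates of a group, chi-square over its degrees of freedom was 26.6 to 37.8, above sampling noise. The members and the lists of related and marker genes were chosen with earlier results of these data known, so no p was adjusted over a list. Named are all members, every related gene called by limma and the 3 most abundant of each list by the mean over all samples. For each of Cd9 and Cd81, the 3 genes closest in pattern are also named. A few genes outside this rule were named after their values were seen: Tspan2, Ezr, Cd44, the tetraspanins that guide ADAM10 and single markers of the cell type lists.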

Additional observations from a re-analysis of the deposited data

How the results depend on the processing

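Leaving out each sample in turn gave 34 to 335 called genes against 404, 0 to 2 called members against 1, and 0 to 3 called related genes against 2. Without the filter on low values 155 genes, 0 members and 1 related gene were called, and without the mean-variance trend 144, 0 and 1. The DESeq2 Wald test called 961, 3 and 5, the members being Ptgfrn, Cd82 and Igsf8. A pseudocount of 0.5, a mean of at least 10 and equal totals each called 1 related gene, having lost Mmp14. Same-numbered samples did not deviate in the same direction (correlation -0.238 over 13769 genes, a correlation across genes). The labels name nothing that same-numbered samples share, and a correlation of so few samples cannot tell whether they share a litter, day or batch. Blocking on the replicate number also takes WT replicate 3, alone in its block, out of the contrast, and 224 genes and 1 member were called. That member was Cd82 (adjusted p = 0.0404), while Ptgfrn had 0.0697, both by limma. The log2 fold change of Cd151 was -0.0037 under the block. Signs turned when a sample was left out for Cd81 (-0.027 to 0.12), Cd151 (-0.0046 to 0.10), Tspan4 (-0.30 to 0.033) and Tspan9 (-0.055 to 0.57), none of which was called. Cd9, Cd63, Cd82, Igsf8, Ptgfrn and Cd53 were below 0 under every alternative run, and Cd53 had no value under a mean of at least 10. The Cd9 to Cd81 ratio stayed between -0.33 and -0.28. Per kilobase of the longest transcript Cd81 was 4.59 times Cd9, against 4.07. The cause was not tested for these changes. The median of all genes stayed between -0.0026 and 0.02. With 1 Elmo2EID/EID sample left, it was assumed to vary like the WT samples. Depth limits Cd53, with 2 to 13 reads a sample.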
